A study of Arabidopsis thaliana with 5 samples.

Results

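Roots of Arabidopsis thaliana supplied with little magnesium for 4 d were set beside roots supplied with much magnesium for the same 4 d, each sampled as 1 RNA-seq library. Low Mg stood for 0.5 µM and high Mg for 10 mM Mg2+ in the supply. Genes were taken into the comparison when they were nuclear and reached 5 FPKM (fragments counted on a gene, divided by its transcript length and by the library's size) in either library, which left 15837 of 33280 nuclear loci and of 33559 loci in the table. The value compared was the log2 ratio of low to high Mg after a pseudocount of 1 FPKM was added to each side. A log2 ratio of 1 or more is called 2-fold higher in low Mg, and -1 or less 2-fold lower.

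The plants are named Col-1 in the labels, which give no mutation, transgene or other agent, and had been cultivated for 5 weeks. The series also holds a control at 4 d, whose Mg level the labels do not give, and low and high Mg libraries at 7 d with the same supplies as at 4 d. The study's question was how the supply of magnesium bears on root hairs, the tubular outgrowths of epidermal cells. Each group is 1 library, and the labels do not say how many plants it holds, so no replicate error, p-value or call of significance exists for any difference below, and each one is a difference between single libraries.

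Magnesium is a cofactor of ATP-using enzymes, the central ion of chlorophyll and a stabiliser of ribosomes. Root cells take it up through channels of the MRS2 family and store it in the vacuole, a step under the control of CBL calcium sensors and CIPK kinases. It competes with potassium and calcium for uptake. Root hairs extend by tip growth, which needs a cytosolic calcium gradient, reactive oxygen, and wall proteins such as extensins, expansins and proline-rich proteins. The roots of cabbage relatives also make indolic defence compounds from tryptophan, namely camalexin and the indole glucosinolates, whose genes are switched on when microbial or damage signals are perceived.

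The library sizes, approximated from the spacing of low values, were about 12930000 fragments in low and 11870000 in high Mg at 4 d, so that 5 FPKM on a transcript of 1 kb stood for about 64.6 and 59.4 fragments. The other 3 libraries came to between 6620000 and 11060000 fragments. Tissue markers matched the label root: of 13 genes of leaf photosynthesis 0 reached 5 FPKM in either library. Their summed level was 18.8 FPKM in low and 24.1 FPKM in high Mg, whereas 10 root genes summed to 1907 and 2838 FPKM. The root gene PYK10 alone held 926 and 1992 FPKM of these sums, and 7 of the 10 root genes reached 5 FPKM in either library. The short locus AT2G01021 held 75.7% of the summed nuclear FPKM in low and 57.7% in high Mg, and 18.5% and 15.6% of all FPKM in low and high Mg at 7 d. Under TPM, with both libraries scaled to an equal sum over nuclear loci, the median of all ratios went from -0.02 to -0.69. This also changed the split of 2-fold genes from 585 higher and 285 lower to 216 higher and 1396 lower. With this locus left out of the sum, an alternative chosen after the data were seen, the median stayed at -0.02 and the split was 577 to 280. Relative to the shift of all genes, the medians of the gene lists below kept their sign under TPM, except that of phenylpropanoid genes, which went from 0.00 to -0.09.

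Genes of indolic defence, salicylate and ethylene had median log2 ratios of 0.75, 1.13 and 0.67, and genes of the root hair wall, root triterpenes and auxin response had medians of -0.76, -1.54 and -0.68. Of the 15837 genes, 585 (3.69%) were 2-fold higher in low Mg and 285 (1.8%) were 2-fold lower, and these shares are the background for the counts within lists. The middle 50% of genes lay between log2 ratios of -0.16 and 0.14. Differences of 4-fold or more, within the 870 genes (5.49%) at 2-fold either way, numbered 210 genes higher and 89 genes lower. Of the 870 genes at 2-fold, 103 were listed at 0 in 1 of the libraries. The 703 coding genes at 2-fold with 500 nt or more of exon and a value above 0 in each library rested on a median of 559.9 fragments over the pair. Counting intervals given below cover counting error only, not the spread between plants.

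**Figure D1:**
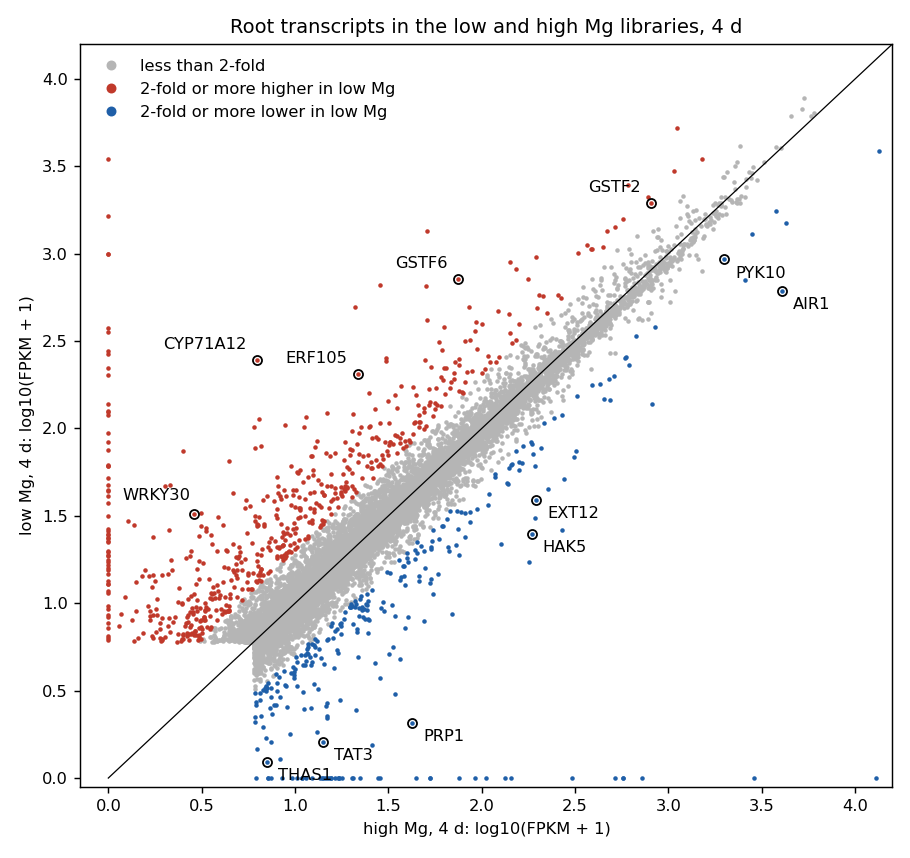
Level of each compared gene in low Mg (vertical axis) against high Mg (horizontal axis) at 4 d, both as log10(FPKM + 1), with 1 point a gene and the line of equal levels. Red points (585) are 2-fold higher and blue points (285) 2-fold lower in low Mg, circles mark named genes, and points at 0 on an axis are genes listed at 0 in that library. The locus AT2G01021, higher in low Mg, lies beyond the axes.

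The pathway from tryptophan to indolic defence compounds held the gene with the highest ratio. CYP71A12, a cytochrome P450 that acts on indole-3-acetaldoxime, the branch point of camalexin and related compounds (AT2G30750, TAIR10.1 chromosome 2, 13099486 to 13101371), stood at 246 FPKM in low Mg and 5.27 FPKM in high Mg, with 167 FPKM in the control and 40.3 and 17.2 FPKM in low and high Mg at 7 d. Its log2 ratio of 5.30 was the highest among coding genes with a symbol, 500 nt or more of exon and a value above 0 in each library. High Mg at 4 d was thus the lowest of the 5 libraries for this gene. Its near-identical neighbour CYP71A13, at 3.73 and 0.102 FPKM, did not reach 5 FPKM, and fragments can be shared between the pair.

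Of 26 genes of camalexin and indole glucosinolate synthesis, 23 were compared, of which 10 were 2-fold higher in low Mg and 1 was 2-fold lower, with a median of 0.75 beside -0.02 for all genes. The methyltransferase genes IGMT4, IGMT2 and IGMT3, which act on hydroxylated indole glucosinolates, lie side by side on chromosome 1 (7389981 to 7400736) and had log2 ratios of 3.56, 3.34 and 2.19. IGMT2 stood at 115 FPKM in low and 10.5 FPKM in high Mg, against 82.7 FPKM in the control and 12.8 and 17.2 FPKM in low and high Mg at 7 d. Their neighbour IGMT1 was closer, at 143 against 102 FPKM, and sharing of fragments among these 4 alike genes is uncertain. CYP81F2, the P450 that hydroxylates indole glucosinolates at the position the IGMT enzymes then methylate, had a ratio of 2.196, and their regulator MYB51 one of 2.17.

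A further hydroxylase gene of the pathway was lower in low Mg. CYP81F4, which makes the 1-hydroxy form, stood at 114 FPKM in low and 243 FPKM in high Mg, a log2 ratio of -1.09, with 109 FPKM in the control. IGMT5, the methyltransferase of that form, stood at 39.9 against 62.2 FPKM (-0.63), short of 2-fold. CYP81F3, a close relative of CYP81F2, was at 23.2 against 40.4 FPKM (-0.78), likewise short of 2-fold. Genes earlier in the pathway were split. CYP79B2, which makes indole-3-acetaldoxime from tryptophan, had a ratio of 1.42, but its paralog CYP79B3 had -0.02. PAD3, the last enzyme of camalexin synthesis, was at 10.2 against 6.82 FPKM (0.52). MYB34, a further regulator of indole glucosinolates, was at 16.9 against 19.1 FPKM.

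Tryptophan synthesis, which feeds this pathway, had all 6 of its genes above 0 on the log2 scale, 3 of them at 2-fold, and the median was 1.04. These 3 encode its early steps. ASA1, the alpha subunit of anthranilate synthase, stood at 90.7 FPKM in low and 33.4 FPKM in high Mg (1.42), with 72.6 FPKM in the control. PAT1, the next enzyme, had a ratio of 1.27 and the beta subunit gene ASB1 one of 1.22. The tryptophan synthase genes TSA1, TSB1 and TSB2 were at 0.87, 0.57 and 0.33.

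Glutathione transferases, which attach glutathione to reactive compounds, showed large differences both ways. GSTF6, of the phi class and linked to camalexin synthesis, stood at 715 FPKM in low and 74.0 FPKM in high Mg (3.26), with 489 FPKM in the control and 79.0 and 181 FPKM in low and high Mg at 7 d. Of 11 phi class genes compared, 4 were 2-fold higher, the others being GSTF3 (3.21), GSTF7 (2.64) and GSTF2 (1.27), and 0 were lower. GSTF2 stood at 1950 against 811 FPKM. GSTF6 and GSTF7, like GSTF2 and GSTF3, are close copies between which fragments can be shared. The tau class was divided, with 3 of 20 genes higher and 4 lower: GSTU12 was at 101 against 5.01 FPKM (4.09), while GSTU8 was at 29.7 against 191 FPKM (-2.64).

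Genes of pattern-triggered immunity, the response to microbial molecules, had 22 of 26 members compared, 7 of which were 2-fold higher in low Mg and 0 lower (median 0.64). The 7 are kinases, peptide precursors and 1 ubiquitin ligase, PUB24 (1.22). FRK1, a receptor-like kinase gene used as a marker of this response, stood at 7.00 FPKM in low and 0.680 FPKM in high Mg (2.25), from about 244 and 22 fragments, with 5.86 FPKM in the control. The precursor genes of the danger peptides PROPEP3 and PROPEP2 had ratios of 2.01 and 1.79, the latter from 675 nt of exon. MPK11 was at 2.34, MKK9 at 1.54 and MPK3 at 1.196, all members of MAP kinase cascades. The co-receptor genes BAK1 and CERK1 stood at 0.14 each, and the flagellin receptor gene FLS2, at 2.80 and 2.06 FPKM, did not reach 5 FPKM.

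Salicylate synthesis and signalling had the highest median of the 37 lists with a compared member: 11 of 18 compared genes (of 21) were 2-fold higher in low Mg and 0 lower, with a median of 1.13. CBP60G and SARD1, related factors that activate the salicylate synthesis gene ICS1, had ratios of 2.45 and 2.14. ICS1 itself stood at 19.8 FPKM in low and 7.22 FPKM in high Mg (1.34), with 10.6 FPKM in the control. Members differed in the place of the control. CBP60G was at 76.9 FPKM in the control, 57.2 FPKM in low and 9.65 FPKM in high Mg, and WRKY70 at 11.8, 37.9 and 5.74 FPKM. Summed over the list, the control held 500 FPKM, low Mg 559 FPKM and high Mg 270 FPKM. PBS3, which acts after ICS1, was at 7.601 against 0.732 FPKM (2.31). ALD1 and FMO1, which make the mobile signal N-hydroxypipecolic acid, had ratios of 1.89 and 1.54. The late marker PR1 was listed at 0 in all 5 libraries, and PR2 and PR5 were under 0.2 FPKM in low and high Mg at 4 d. In the control PR2 was at 5.53 FPKM and PR5 at 0.114 FPKM.

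Transcription factors of the WRKY family, many of which act in defence, had 17 of 48 members 2-fold higher in low Mg and 0 lower, with a median of 0.32. WRKY30 stood at 31.4 FPKM in low and 1.87 FPKM in high Mg (3.498), with 14.8 FPKM in the control and 10.2 and 7.91 FPKM at 7 d. WRKY70, which stands between salicylate and jasmonate signalling, had a ratio of 2.53 and WRKY33, an activator of camalexin genes, one of 1.71. WRKY46 was at 40.1 FPKM in low Mg but at 7.35 FPKM in high Mg and 5.61 FPKM in the control. Genes annotated as VQ motif proteins, many of which bind WRKY factors (a grouping added after the data were seen), had 7 of 23 members higher and 0 lower. NAC042, a NAC factor known to act in camalexin induction, stood alone in its family at 3.39, and of 37 NAC genes 1 was 2-fold higher and 1 lower.

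**Figure D2:**
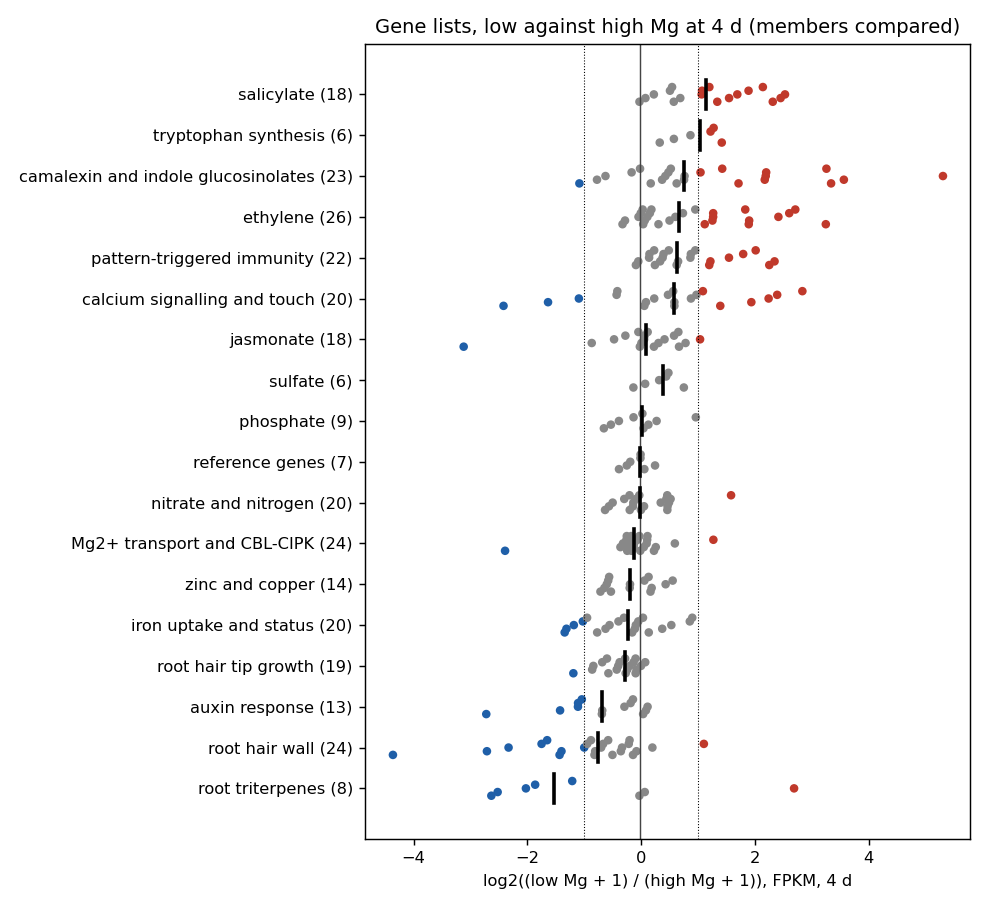
Log2 ratio of low to high Mg at 4 d for each compared member of 18 gene lists, 1 point a gene, with the number compared in brackets and a black bar at each list's median. Dotted lines mark log2 ratios of -1 and 1, and the thin line the median of all genes (-0.02). Members of the salicylate, tryptophan, camalexin and ethylene lists reach to the right, and those of the root hair wall, auxin response and triterpene lists to the left.

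Ethylene genes were divided by role. Of 26 compared (of 30), 11 were 2-fold higher and 0 lower, with a median of 0.67, and 8 of these are ethylene response factor (ERF) genes. ERF105 (AT5G51190, chromosome 5, 20800473 to 20801437) stood at 204 FPKM in low and 20.7 FPKM in high Mg (3.24), with 18.6 FPKM in the control and 28.2 and 11.6 FPKM in low and high Mg at 7 d. ERF11 (2.71), ERF13 (2.60) and ERF2 (2.41) followed. The synthesis genes ACS6, ACS2 and ACO4 had ratios of 1.83, 1.26 and 1.12. The receptor and signal transduction genes ETR1, CTR1, EIN2 and EIN3 lay between -0.28 and 0.03.

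Calcium and touch genes had 6 of 20 compared members higher and 3 lower (median 0.57). TCH3, a calmodulin-like gene induced by touch, stood at 310 FPKM in low and 58.3 FPKM in high Mg (2.39), with 217 FPKM in the control. CML37, a further calmodulin-like gene, was at 38.1 against 4.50 FPKM (2.83), with 5.75 FPKM in the control. The 3 lower members were ANNAT4, at 6.22 against 37.6 FPKM (-2.42), its neighbour on chromosome 2 ANNAT3 (-1.096), both annexins, and CML39 (-1.64). Among 33 genes annotated as EF-hand proteins, a grouping added after the data were seen, 7 were higher and 1 lower.

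The control library did not take the same place for all genes that were higher in low Mg. For CYP71A12, IGMT2, GSTF6 and FRK1, above, it held most of the low Mg level, and high Mg was the library that lay apart. For ERF105, CML37 and WRKY46 it was near high Mg. ZAT10, a zinc finger repressor of stress genes, at 242 FPKM in low Mg, 29.8 FPKM in high Mg and 44.5 FPKM in the control, was of the second kind. So was CAF1a, which encodes an mRNA deadenylase, at 122, 13.9 and 7.65 FPKM in the same order. These placements are read from single libraries that the comparisons with the control share.

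**Figure D3:**
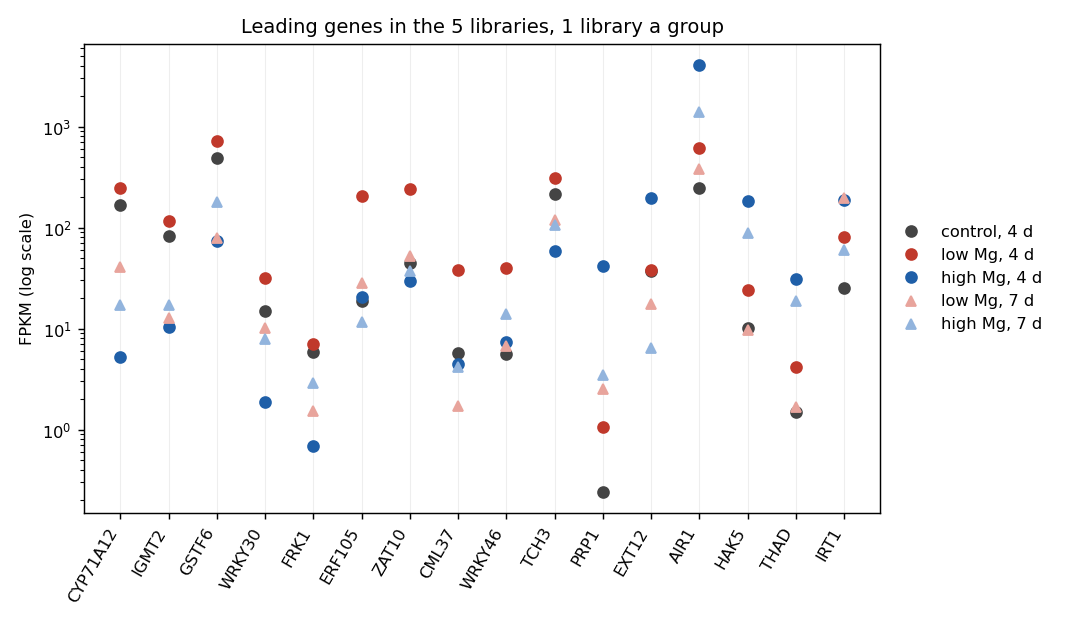
Level in FPKM (log axis) of 16 named genes in the 5 libraries, 1 point a library, with circles for 4 d and triangles for 7 d. For CYP71A12, IGMT2, GSTF6 and FRK1 the control lies near low Mg at 4 d, for ERF105, CML37 and WRKY46 it lies near high Mg at 4 d, and for PRP1, AIR1, HAK5 and THAD the high Mg library at 4 d is the highest of the 5.

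Jasmonate genes, by contrast, stood close to the background. Of 18 compared (of 29), 1 was higher, the repressor gene JAZ6 (1.03), and 1 lower, TAT3, a tyrosine aminotransferase gene at 0.618 against 13.1 FPKM (-3.12), and the median was 0.09. TAT3 was at 1.26 FPKM in the control and at 2.97 against 88.2 FPKM at 7 d. Abscisic acid genes (5 compared of 12) had 0 members at 2-fold and a median of 0.21. Flavonoid genes (4 compared of 11) were not close to the background, with a median of -1.11 and all 4 below 0. Of these, 2 were 2-fold lower, the chalcone synthase gene TT4 (-1.37) and F3H (-1.51), both under 13 FPKM. Among reactive oxygen genes only ZAT10 and ZAT12 (1.27) of 13 were at 2-fold, and these are zinc finger factors, while catalase and ascorbate peroxidase genes lay between -0.04 and 0.39.

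Other genes named for a large difference in FPKM follow, those of the higher side first. The osmotin gene OSM34 stood at 720 FPKM in low and 176 FPKM in high Mg (2.02), PR4, a chitin-binding protein, at 580 against 201 FPKM (1.53), and the protease inhibitor KTI1 at 578 against 255 FPKM (1.18). The extensin gene EXT4, whose product cross-links the wall, was at 1086 against 448 FPKM (1.28). The metallothionein gene MT1B was at 1114 against 364 FPKM (1.61). Control levels of these 5 genes ran from 387 FPKM (PR4) to 1468 FPKM (EXT4). On the lower side, the arabinogalactan protein gene AGP30 stood at 231 FPKM in low and 614 FPKM in high Mg (-1.40). MLP34 was at 381 against 843 FPKM (-1.14) and BNQ3 at 178 against 430 FPKM (-1.27). CDEF1 was at 50.4 against 276 FPKM (-2.43) and DELTA-TIP at 176 against 388 FPKM (-1.13). Genes annotated as peroxidases were divided, with 9 of 48 higher and 5 lower.

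Several genes without a symbol ranked with these, and they are named here after their values were seen. AT5G26130, of the CAP family to which PR1 belongs, stood at 1347 FPKM in low and 49.97 FPKM in high Mg (4.72), with 1079 FPKM in the control and 1759 and 154 FPKM in low and high Mg at 7 d. AT5G38930, a cupin, was at 492 against 19.9 FPKM (4.56). The chitinase gene AT2G43620 had a ratio of 4.14 and the berberine bridge enzyme gene AT1G26380 one of 3.88. On the low side AT4G33710, likewise of the CAP family, was at 0.554 against 24.9 FPKM (-4.06), and AT3G19430, a late embryogenesis abundant-like protein, at 25.2 against 267 FPKM (-3.35).

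Some of the 870 genes lie side by side. Consecutive compared loci that were 2-fold the same way formed 14 runs of 3 or more, holding 50 genes in all. In 13 runs the genes were higher in low Mg, and in 1 run they were lower. The higher runs include IGMT3, IGMT2 and IGMT4, and 4 genes of TIR domain proteins, a part of immune receptors, on chromosome 1 (27432178 to 27443859; ratios of 1.66 to 2.86). A run of 4 chitinase-like genes on chromosome 4 (10729966 to 10765795) had ratios of 1.35 to 1.91. A run of 5 genes on chromosome 5 (21370499 to 21387714), annotated as copper transport or heavy metal binding proteins, had ratios of 1.74 to 2.69. At 7 d the genes of this run were at -3.14 to -0.96, and the chitinase-like genes compared on that day at -2.96 to -1.38. A run from AT1G63522 to AT1G63570 on chromosome 1 was again higher, at 2.45 to 3.35 for its genes compared at 7 d. Such neighbours are often copies, and fragments can be shared between them.

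The promoters of leading genes are shown because many of the transcription factors that differed have known binding motifs. Each window is the 250 bases before the annotated gene start in TAIR10.1, written 5′ to 3′ on the gene's strand, with capitals for the W-box core TTGAC, which WRKY factors bind, and for GTCAA, the same core on the other strand. The windows are chr2:13101372-13101621 for CYP71A12 and chr1:7396824-7397073 for IGMT2, both on the minus strand.
CYP71A12: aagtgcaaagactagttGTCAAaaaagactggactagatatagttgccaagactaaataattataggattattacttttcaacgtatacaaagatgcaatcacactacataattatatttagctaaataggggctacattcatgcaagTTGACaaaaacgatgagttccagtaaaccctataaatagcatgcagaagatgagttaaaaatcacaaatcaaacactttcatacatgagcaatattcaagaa
IGMT2: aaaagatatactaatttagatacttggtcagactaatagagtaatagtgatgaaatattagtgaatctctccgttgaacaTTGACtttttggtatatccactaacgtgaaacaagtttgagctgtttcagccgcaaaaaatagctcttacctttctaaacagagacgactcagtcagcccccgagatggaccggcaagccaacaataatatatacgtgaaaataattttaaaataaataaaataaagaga
CYP71A12 holds the core 2 times, with the first letter 102 and 233 bases before the gene start, and IGMT2 holds it 1 time, from 170 bases before it. Over all promoters of this length, 62.2% of the 550 coding genes 2-fold higher in low Mg, 43.7% of the 261 lower ones and 45.9% of all 15511 compared coding genes held the core on either strand. The GCC box GCCGCC, which ERF factors bind, was in 3.64%, 1.53% and 1.94% of the same sets. The rapid stress response element CGCGTT was in 4.36%, 1.92% and 2.55%, and the G-box CACGTG in 6.91%, 5.75% and 7.07%. A match describes these letters only and is not a binding site.

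**Figure D4:**
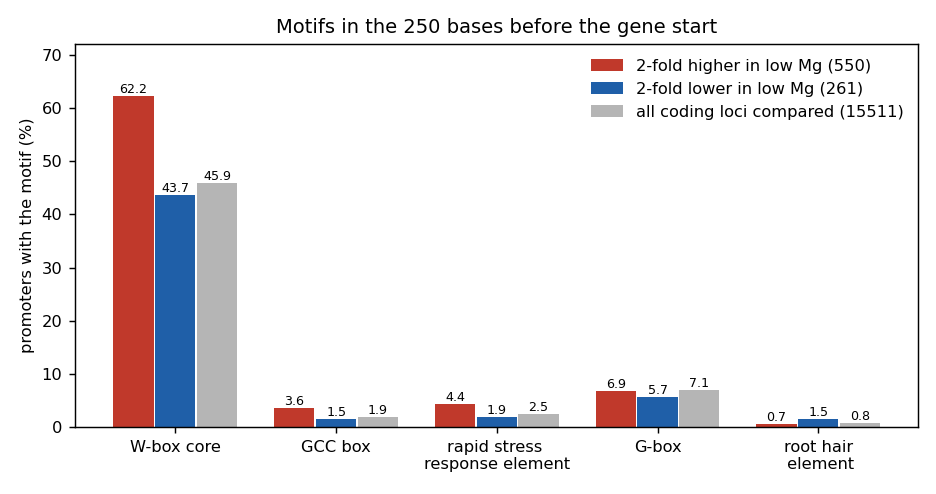
Share of promoters (percent, 250 bases before the gene start, both strands) with each of 5 motifs, for coding genes 2-fold higher in low Mg (550), 2-fold lower (261) and all compared (15511). The W-box core is in 62.2% of the higher set and 45.9% of all, and the other motifs are in under 10% of each set.

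Wall genes of root hairs mostly had ratios below 0 at 4 d. All 24 members were compared: 8 were 2-fold lower and 1 was 2-fold higher, with a median of -0.76. PRP1, a proline-rich wall protein of hair cells (AT1G54970, chromosome 1, 20504901 to 20506504), stood at 1.07 FPKM in low and 41.6 FPKM in high Mg, with 0.242 FPKM in the control and 2.502 and 3.49 FPKM in low and high Mg at 7 d. These levels rest on about 19 and 677 fragments at 4 d, and high Mg at 4 d was the only library above 5 FPKM. The log2 ratio was -4.36 with the pseudocount, and without it the 95% counting interval (exact, conditional on the total) ran from -6.02 to -4.62. In bulk roots, a difference in the number of hair cells and a difference in RNA per hair cell cannot be told apart.

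The 7 other members at 2-fold encode wall enzymes and extensins. EXT12, an extensin, stood at 37.9 FPKM in low and 195 FPKM in high Mg (-2.33), with 37.0 FPKM in the control. XTH13 (-2.71), XTH12 (-1.40) and XTH26 (-1.001) are xyloglucan endotransglucosylases, which cut and rejoin wall polymers. RHS12 (-1.75), RHS18 (-1.65) and LRX2 (-1.43), a leucine-rich repeat extensin, completed the group. The expansin genes EXPA7 and EXPA18, which are defining markers of hair cells, stood at 35.9 against 70.3 FPKM (-0.95) and 40.2 against 71.7 FPKM (-0.82), short of 2-fold. The extensin genes EXT6, EXT10 and EXT11 lay between -0.22 and 0.20, so the members were not all apart in the same way, and RHS15 was higher in low Mg at 11.03 against 4.61 FPKM (1.101).

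The promoters of 3 of these genes carry the root hair element, a motif known from hair-specific genes, and are shown with it in capitals. The windows are chr1:20504651-20504900 for PRP1, chr5:7426060-7426309 for RHS18 and chr1:4276255-4276504 for EXPA7.
PRP1: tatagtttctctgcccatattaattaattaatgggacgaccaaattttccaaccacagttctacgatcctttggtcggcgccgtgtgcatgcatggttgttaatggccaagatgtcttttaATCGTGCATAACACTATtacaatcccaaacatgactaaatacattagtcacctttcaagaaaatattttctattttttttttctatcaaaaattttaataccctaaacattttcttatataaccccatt
RHS18: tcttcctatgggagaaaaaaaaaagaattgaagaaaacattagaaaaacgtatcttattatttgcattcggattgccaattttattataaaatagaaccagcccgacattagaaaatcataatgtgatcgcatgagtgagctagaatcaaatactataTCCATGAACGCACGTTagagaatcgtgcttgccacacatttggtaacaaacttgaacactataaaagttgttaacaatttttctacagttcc
EXPA7: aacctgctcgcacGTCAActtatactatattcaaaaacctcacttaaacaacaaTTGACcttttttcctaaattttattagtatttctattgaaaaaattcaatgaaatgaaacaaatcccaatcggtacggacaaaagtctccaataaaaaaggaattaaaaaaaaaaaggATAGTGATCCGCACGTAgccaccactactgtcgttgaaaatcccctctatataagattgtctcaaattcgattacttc
In PRP1 the element lies on the other strand, so the capitals show its reverse complement, with their first letter 129 bases before the gene start. In RHS18 and EXPA7 it reads on the gene's strand, from 92 and 78 bases before the gene start. The 2 shorter runs of capitals in EXPA7 are W-box cores. All 3 genes are on the plus strand. Of the 23 root hair wall genes with a promoter window, 9 (39.1%) held the element, beside 0.793% of all compared coding genes. The list was drawn from known hair genes, of which some served to define the element. Having it did not sort the genes by their ratio: RHS15 at 1.101, RHS13 at -0.34 and PRP1 at -4.36 hold it, whereas XTH13 at -2.71 and EXT12 at -2.33 do not.

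The other hair genes differed less. Of 19 tip growth genes compared (of 21), 1 was 2-fold lower, the receptor-like kinase gene CAP1 at 2.48 against 6.96 FPKM (-1.19), and the median was -0.28. RHD2, the NADPH oxidase of the growing tip, stood at 30.7 against 41.0 FPKM (-0.40), and COW1, a phosphatidylinositol transfer protein, at 9.41 against 17.65 FPKM (-0.84). Among the factors that drive hair growth, RSL4 was at 2.09 FPKM in low and 10.0 FPKM in high Mg (-1.84), from about 36 and 160 fragments, with 1.13 FPKM in the control. RHD6, which acts before RSL4, was at -0.63, LRL3 at -0.92 and RSL2 at 0.33. The cell fate genes GL2 and WER, which mark non-hair cells, were at -0.57 and -0.44, and 0 of 7 compared fate genes reached 2-fold (median -0.22). Marker genes of both epidermal cell types thus had ratios below 0, and their part in the ratios of the wall genes was not tested.

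The 7 d libraries gave root hair wall genes in the opposite order. Of 23 members compared at 7 d, 18 were 2-fold higher and 0 lower in low Mg (median 1.86), beside 2.54% and 3.21% of all 15684 genes compared on that day. EXPA7 stood at 53.0 against 19.4 FPKM (1.40) at 7 d and XTH26 at 51.2 against 6.36 FPKM (2.83). The low Mg level of EXPA7 was higher at 7 d than at 4 d and the high Mg level lower, so for this gene both levels differed between the days. Not all members followed EXPA7. The extensin gene EXT6 was lower at 7 d under both supplies, at 295 and then 66.5 FPKM in low Mg and 257 and then 8.15 FPKM in high Mg. The pairs of days also differ in the clock genes CCA1, at 0.201 and 0.172 FPKM in low and high Mg at 4 d and 228 and 256 FPKM at 7 d, and LHY, at 0.0794 and 0.215 FPKM and then 180 and 190 FPKM. Both peak near dawn. The time of day at sampling is not in the labels, and its part in the difference between days was not tested. Within 4 d the 7 compared clock genes lay between -0.28 and 0.14.

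**Figure D5:**
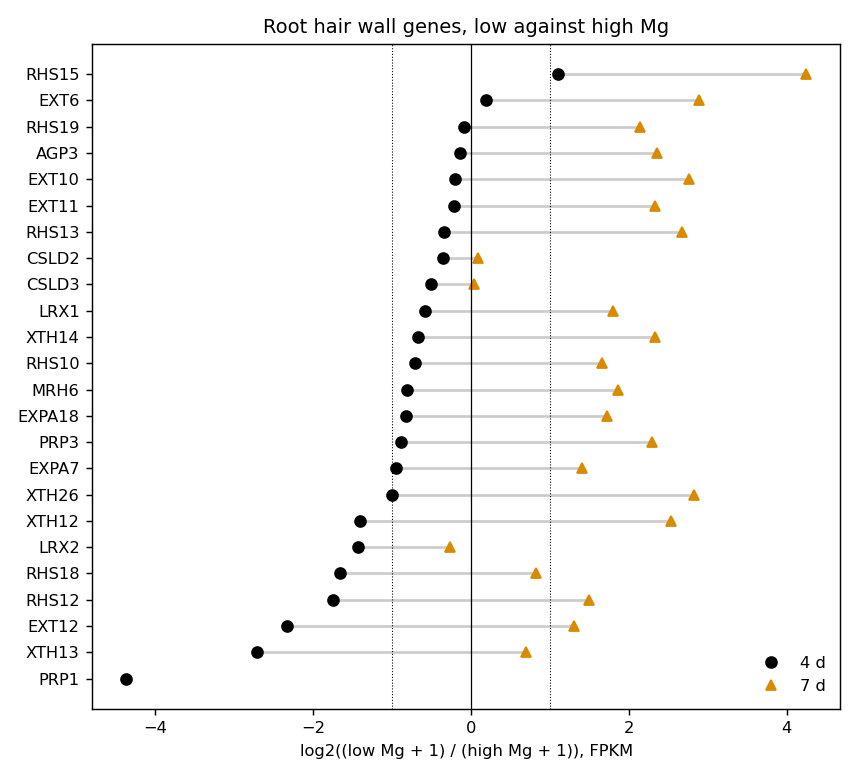
Log2 ratio of low to high Mg for the 24 root hair wall genes at 4 d (circles) and 7 d (triangles), 1 library a group, ordered by the ratio at 4 d, with dotted lines at -1 and 1. Most circles lie below 0 (median -0.76) and most triangles above 1 (median 1.86), and PRP1 has no value at 7 d because it was under 5 FPKM in both libraries.

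Auxin response genes included members 2-fold lower in low Mg and auxin transport genes did not. Of 13 response genes compared (of 19), 5 were 2-fold lower and 0 higher, with a median of -0.68. AIR1, a wall-linked gene induced by auxin in root cultures, stood at 611 FPKM in low and 4037 FPKM in high Mg (-2.72), with 245 FPKM in the control and 381 and 1392 FPKM in low and high Mg at 7 d. LBD29 (-1.43) and LBD18 (-1.04), factors of lateral root formation, and GH3.5 and GH3.1 (-1.11 each), which conjugate auxin to amino acids, were the others. The early response genes IAA1 and IAA2 were at 0.11 and -0.14, and SHY2 and IAA19 of the same list at -0.19 and -0.68. All 12 transport genes of the PIN, AUX1/LAX and ABCB families lay between -0.45 and 0.27.

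AIR1 belongs to the lipid-transfer-like proteins. Of 41 genes annotated as this family, a grouping added after the data were seen, 9 were 2-fold lower and 2 higher, while the median was 0.05. AIR1 is annotated under its own name and is not among the 41. EARLI1, at 1.45 against 20.3 FPKM (-3.12), and AT4G12545, at 708 against 2569 FPKM (-1.86), lie in the same region of chromosome 4 as AIR1. PR-1-LIKE, a CAP family gene, was at 16.3 against 177 FPKM (-3.37). The control held 17.0 FPKM of it, so high Mg was the library apart. PYK10, the beta-glucosidase of the root's ER bodies and an abundant root marker, was at 926 against 1992 FPKM (-1.105), with 626 FPKM in the control.

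Genes of root triterpenes, compounds that shape the root microbiota and are encoded in clusters, had the lowest median of the lists. Of 8 compared (of 9), 5 were 2-fold lower and 1 higher, with a median of -1.54. The thalianol cluster on chromosome 5 (19428888 to 19461706) was the only run of 3 or more neighbours that was lower. Its synthase gene THAS1 stood at 0.232 FPKM in low and 6.08 FPKM in high Mg, from about 8 and 192 fragments, with 0.0352 FPKM in the control. The P450 gene THAD (CYP705A5) was at 4.13 against 30.8 FPKM (-2.63), THAH at -1.86 and the acyltransferase gene AT5G47980, which is outside the list, at -1.16. At 7 d THAD was at 1.67 against 18.9 FPKM (-2.90), the same direction as at 4 d.

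The marneral cluster genes CYP705A12 and CYP71A16 had ratios of -2.03 and -1.21. The higher member was BARS1, the baruol synthase on chromosome 4, at 60.1 FPKM in low and 8.49 FPKM in high Mg (2.69), with 26.4 FPKM in the control. It formed a run with CYP705A3 (1.93) and CYP705A2 (1.05). PEN1 and CYP705A1, which lie beside it, were at -0.03 and 0.06.

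Genes of magnesium transport and of the CBL-CIPK system differed little. Of 24 compared (of 27), 1 was higher and 1 lower, with a median of -0.13. CIPK9, a kinase known for potassium and vacuolar magnesium homeostasis (AT1G01140, chromosome 1, 64166 to 67774), stood at 0.780 FPKM in low and 8.35 FPKM in high Mg (-2.39), from about 19 and 184 fragments, with 0.713 FPKM in the control. CAX3, a vacuolar cation/proton exchanger, was at 7.41 against 2.49 FPKM (1.27), with 11.5 FPKM in the control, and its paralog CAX1 was at 14.6 against 9.35 FPKM (0.59). The 8 MRS2 channel genes compared lay between -0.37 and -0.02, and the vacuolar exchanger MHX at -0.23. CBL8, a calcium sensor gene outside the list, was at 1.69 against 13.9 FPKM (-2.47).

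Potassium and sodium genes had 1 of 16 compared members higher and 1 lower (median -0.08). HAK5, the high-affinity potassium uptake transporter that is known to be induced by potassium shortage, stood at 23.9 FPKM in low and 184 FPKM in high Mg (-2.90), with 10.2 FPKM in the control and 9.76 and 88.1 FPKM in low and high Mg at 7 d (-3.05). The high Mg libraries were the highest for it on both days. The channel gene AKT1, which takes up potassium alongside HAK5, was at 70.8 against 83.2 FPKM (-0.23), and the exchanger gene CHX17 was higher in low Mg, at 5.68 against 1.51 FPKM (1.41).

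Iron genes had 4 of 20 compared members (of 27) 2-fold lower in low Mg and 0 higher, with a median of -0.23. The uptake transporter IRT1 stood at 81.0 FPKM in low and 185 FPKM in high Mg (-1.18), with 25.5 FPKM in the control and 195 and 60.004 FPKM in low and high Mg at 7 d. The ferric reductase gene FRO2 was at -1.35, the regulator BHLH39 at -1.31 and the vacuolar metal transporter gene MTPA2 at -1.03. FIT1, the factor that activates IRT1 and FRO2, was at 102 against 150 FPKM (-0.56). The ferritin gene FER1, of iron storage, was at 299.9 against 161 FPKM (0.90), short of 2-fold on the other side.

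Other nutrients showed few differences. Of 20 nitrogen genes compared, 1 was at 2-fold, the nitrate transporter NRT2.1 at 135 against 44.6 FPKM (1.58), far below its 1341 FPKM in the control. Zinc and copper genes (14 compared, median -0.20), phosphate genes (9, median 0.02) and sulfate genes (6, median 0.38) had 0 members at 2-fold. These lists of cell type markers likewise had 0 members at 2-fold: xylem wall genes (12, median 0.17), phloem (5, 0.13), Casparian strip (8, 0.11), suberin (12, 0.25) and mitosis (12, 0.04). In the root identity list, 1 of 7 compared members was 2-fold lower, PYK10, and the root hair wall list is given above. The 7 reference genes lay between -0.39 and 0.24, and ribosomal protein genes of the RPL and RPS series had 0 of 21 members each at 2-fold.

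Stress lists outside defence had 1 or 2 members at 2-fold. In the hypoxia list the desaturase gene SAD6 (-1.21) and the pyruvate decarboxylase gene PDC1 (-1.13) were lower among 11 compared. In the heat shock list HSP17.4 was at 5.48 against 1.63 FPKM (1.299), both far below its 42.6 FPKM in the control, whose summed heat shock level was 1031 FPKM against 191 and 155 FPKM. Of 13 chaperone genes of the endoplasmic reticulum 1 was higher, BIP3 (1.19). Of the lignin monomer genes CCR2 alone, known as a stress-responsive cinnamoyl-CoA reductase, was at 2-fold (1.55), while CCR1 was at -0.18. Of 9 sugar and dark response genes compared, BCAT2 (1.25) was at 2-fold.

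Some coding genes were listed at 0 in 1 library and get no fold. RTFL18, a small peptide gene, was at 74.6 FPKM in low Mg and listed at 0 in the other 4 libraries. LCR43, a defensin-like gene, was at 11.9 FPKM in low Mg and likewise listed at 0 elsewhere. GDU6, a regulator of amino acid export, was at 6.71 FPKM in low and 0 in high Mg, with 13.7 FPKM in the control. Such a 0 can stand for few fragments or for a failed estimate, which the files do not tell apart.

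Over all genes compared on both days, 2.08% were 2-fold higher and 2.68% lower in low Mg at 7 d. Of the 585 genes higher in low Mg at 4 d, 422 were compared at 7 d, where 57 (13.5%) were again higher and 72 (17.1%) were lower, with a median of -0.21. Those 57 are 14.3% of the 398 genes higher at 7 d. Of the 285 lower genes, 214 were compared, with 73 (34.1%) again lower, 40 (18.7%) higher and a median of -0.41, and the 73 are 14.5% of the 504 genes lower at 7 d. At 7 d the camalexin and indole glucosinolate list had 2 members higher and 4 lower (median -0.32), and the salicylate list 1 higher and 2 lower (median -0.48). CYP71A12 (1.19) and CYP71B22 (1.57), a P450 gene at 28.7 against 0.277 FPKM at 4 d, were higher on both days, and so was ERF105 (1.21).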

How the data were processed

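Total RNA from roots was measured by RNA-seq in 5 libraries, each the only one of its group, grouped by their sample titles. The deposited values are FPKM per locus, a unit taken from the tool list and from values that are not whole and step with exon length, since neither labels nor headers give it. For the libraries of 4 d, the authors list Cufflinks 2.1.1, TopHat2 2.0.8 and the TAIR10 build, per the submitters' processing notes. For 7 d only TAIR10 is listed, and the aligner is not given in the sources used here. Strand handling is not stated, so overlapping and antisense genes cannot be told apart. The series table and the tables of single samples held the same 167795 values.

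Positions, exon lengths and promoters came from the RefSeq annotation of TAIR10.1, in which 32817 loci were found. Ratios were log2 with a pseudocount of 1 FPKM, which understates differences of low genes. Fragment numbers are approximate: at the estimated library size 48.1% and 43.4% of low values in low and high Mg came within 0.1 fragment of a whole number, beside 20% for evenly spread values, so no count model was fitted to them and they serve only for the intervals. Intervals are exact (Clopper-Pearson, conditional on the pair's total, 95%) and cover counting error only. With 1 library a group no test was possible, and PCR copies cannot be recognised. The scripts ran on Python 3.11.15, pandas 2.3.3, numpy 2.4.6, SciPy 1.17.1 and matplotlib 3.10.9, and were tested on simulated data.

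The comparison, the gene lists (594 distinct loci in 38 lists) and the families were chosen with earlier results of these data known. Named genes are the 15 highest and 15 lowest ratios among coding genes with a symbol, 500 nt or more of exon and a value above 0 in each library, the 10 largest differences in FPKM each way, up to 4 members at 2-fold each way per list, the root hair and magnesium lists, genes of neighbouring runs and up to 4 genes listed at 0 in 1 library. Other list and family members, the groups by annotated product and the genes without a symbol were chosen after their values were seen. Alternatives were a pseudocount of 0.1 FPKM, a filter of 20 FPKM or none, TPM, centring on the median, and coding genes of 500 nt or more. The promoter sequences printed are a selection, and the sequence of 1 further promoter is not reported here.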

Additional observations from a re-analysis of the deposited data

Results flagged for a closer look

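Some results pointed in opposite directions at 4 d and 7 d. Each rests on 1 library a group, so the difference between days was not tested, and the days also differ in the dawn genes CCA1 and LHY. The median log2 ratio of low to high Mg over the root hair wall genes was -0.76 at 4 d and 1.86 at 7 d.

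Of genes lower in low Mg at 4 d, 4 are members of the list on iron uptake and status. The iron transporter gene IRT1 went from -1.18 at 4 d to 1.69 at 7 d, the ferric reductase gene FRO2 from -1.35 to 1.66, the regulator gene BHLH39 from -1.31 to 1.21 and the vacuolar metal transporter gene MTPA2 from -1.03 to 1.22. The extensin gene EXT12 had -2.33 and then 1.31, and RHS12 had -1.75 and then 1.49. The kinase gene CAP1 had -1.19 and then 1.17, and the calcium sensor gene CBL8 had -2.47 and then 1.08.

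Of genes higher in low Mg at 4 d, GSTF6 had 3.26 and then -1.18, and EXT4 had 1.28 and then -1.84. OSM34 had 2.02 and then -1.05, and the calmodulin-like gene CML38 had 1.94 and then -1.08.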

How the results depend on the processing

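The counts of 585 genes higher and 285 lower in low Mg became 351 and 157 with a filter of 20 FPKM, which tests fewer genes (8809), and 216 and 1396 under TPM, where the locus AT2G01021 takes a larger share of the sum in low Mg. A pseudocount of 0.1 FPKM, no filter, centring, coding genes of 500 nt or more, and TPM without AT2G01021 kept both counts within 1.5 times, from 493 to 755 higher and from 226 to 366 lower. Of the 108 named genes, 0 changed sign under the pseudocount, centring or TPM, and 20 fell short of 2-fold under TPM. TPM changed the sign of 18 of 37 list medians, no filter that of 5, the filter of 20 FPKM that of 4 and centring that of 3. The restriction to coding genes was run for counts only. No paired analysis was possible because each group has 1 library, and for the same reason no replicate could be left out. Depth limits genes near 5 FPKM, where about 64.6 fragments per kb stand behind a value in low Mg.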
